A study of Mus musculus with 4 samples.

Results

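The mitochondrial ribosomal protein genes are the nuclear genes for the proteins of the ribosome inside mitochondria. They were taken as every gene of the deposited mRNA table whose symbol begins with Mrpl or Mrps followed by a digit. This gave 77 of 22481 gene symbols, 47 beginning with Mrpl and 30 beginning with Mrps. RNA of pancreatic islets was sequenced from mice of strain 129sv at postnatal day 0, in 2 libraries labelled Mettl3/14nKO and 2 labelled wild-type. The enzyme that writes N6-methyladenosine (m6A) on RNA is a pair of Mettl3, which catalyses, and Mettl14, which helps to bind the RNA. The labels give the genotype as Mettl3/14nKO and name no Cre driver, no cell type for the deletion, and no litter or animal for a library, so a p-value here reflects the spread among 4 libraries that may be technical replicates. Islets are mixed clusters of hormone cells with vessel, stromal and blood cells.

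The mitochondrial ribosome makes the few proteins that mitochondrial DNA encodes, all of them parts of the respiratory chain or of ATP synthase. Its RNAs come from mitochondrial DNA, but its proteins come from nuclear genes, are made in the cytosol and are imported. It has a large subunit, which joins amino acids and lets the new protein out through a tunnel into the inner membrane, and a small subunit, which reads the mRNA. Some proteins of each subunit have counterparts in the bacterial ribosome and others are found in mitochondria alone. Beta cells rely on respiration to couple glucose to insulin release.

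The symbols do not sort the members cleanly by subunit. By structure, 49 members belong to the large subunit, 26 to the small subunit and 2 to neither. Mrps30 and Mrps18a carry small-subunit names but are large-subunit proteins (mL65 and mL66). Mrps36 is a component of the 2-oxoglutarate dehydrogenase complex, and Mrps36-ps1 is named as its pseudogene. The proteins now called Mrpl57 and Mrpl58 stand in the table as Mrp63 and Ict1 and so fell outside the rule.

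Promoter sequences are shown first because many members share a head-to-head arrangement with a neighbour and a few short motifs known for nuclear genes of mitochondrial proteins. RefSeq promoter windows on GRCm38.p6, running from 250 bases before to 50 bases after the annotated start (300 bases), were found for 67 members, 73 windows in all. They were searched on both strands for the NRF1 motif (GCGC, any base, then TGCGC), the ETS motif CCGGAAG, which GABPA binds, and the YY1 motif AANATGGC. No motif contains another. Capitals mark the matches, and letters run 5′ to 3′ on the gene's strand. Mrpl12 and Mrpl45 are shown for NRF1, Mrps12 for an ETS and a YY1 match, Mrpl47 for YY1, Mrps11 for the window it shares in part with Mrpl46, and Mrps15, the member with the smallest p, for a window without a match.
Mrpl12, chr11:120484387-120484686, plus strand: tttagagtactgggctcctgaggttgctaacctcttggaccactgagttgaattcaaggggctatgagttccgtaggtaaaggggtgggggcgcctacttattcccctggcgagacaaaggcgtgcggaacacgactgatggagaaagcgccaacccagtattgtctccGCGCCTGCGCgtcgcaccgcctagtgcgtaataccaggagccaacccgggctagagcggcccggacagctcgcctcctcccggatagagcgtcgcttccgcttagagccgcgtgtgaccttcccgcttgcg
Mrpl45, chr11:97315466-97315765, plus strand: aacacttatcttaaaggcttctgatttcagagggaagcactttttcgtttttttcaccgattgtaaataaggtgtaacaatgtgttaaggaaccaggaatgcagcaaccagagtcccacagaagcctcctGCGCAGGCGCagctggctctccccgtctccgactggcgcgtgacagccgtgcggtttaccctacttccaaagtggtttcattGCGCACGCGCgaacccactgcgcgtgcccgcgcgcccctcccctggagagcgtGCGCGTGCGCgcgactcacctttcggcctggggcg
Mrps12, chr7:28741772-28742071, minus strand: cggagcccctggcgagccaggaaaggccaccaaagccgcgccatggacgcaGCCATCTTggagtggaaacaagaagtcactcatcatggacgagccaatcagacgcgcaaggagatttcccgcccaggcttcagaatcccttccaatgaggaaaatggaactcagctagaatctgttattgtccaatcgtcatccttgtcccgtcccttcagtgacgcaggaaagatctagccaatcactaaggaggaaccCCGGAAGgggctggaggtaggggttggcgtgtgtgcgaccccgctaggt
Mrpl47, chr3:32736706-32737005, minus strand: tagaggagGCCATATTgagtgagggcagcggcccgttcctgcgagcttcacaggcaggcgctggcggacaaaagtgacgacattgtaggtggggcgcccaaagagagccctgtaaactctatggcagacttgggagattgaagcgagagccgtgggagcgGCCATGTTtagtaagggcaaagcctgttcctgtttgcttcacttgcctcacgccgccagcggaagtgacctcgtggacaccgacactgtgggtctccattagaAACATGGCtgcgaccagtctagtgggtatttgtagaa
Mrps11, chr7:78782881-78783180, plus strand: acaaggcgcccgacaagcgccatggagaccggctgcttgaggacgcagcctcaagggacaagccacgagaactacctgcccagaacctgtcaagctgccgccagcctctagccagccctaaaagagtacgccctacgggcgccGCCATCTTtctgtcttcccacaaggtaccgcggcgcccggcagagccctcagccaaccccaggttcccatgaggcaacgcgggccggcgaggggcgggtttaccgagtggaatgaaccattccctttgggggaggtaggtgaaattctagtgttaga
Mrps15, chr4:126046678-126046977, plus strand: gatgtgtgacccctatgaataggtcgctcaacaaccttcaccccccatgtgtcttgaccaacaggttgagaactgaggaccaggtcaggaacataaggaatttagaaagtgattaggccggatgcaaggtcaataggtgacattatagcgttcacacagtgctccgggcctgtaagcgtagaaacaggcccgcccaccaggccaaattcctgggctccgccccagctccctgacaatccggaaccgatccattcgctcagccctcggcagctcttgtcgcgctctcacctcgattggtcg

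At least 1 of the 3 motifs was present in 45 of the 73 windows (61.6%), compared with 30.8% of 10726 windows of the genes tested and 17.4% of all 32851 windows. The NRF1 motif was in 12 windows (16.4%, against 10.1% of tested-gene windows and 4.6% of all windows). The ETS motif was in 24 (32.9%, against 17.1% and 8.86%), and the YY1 motif in 20 (27.4%, against 8.33% and 6.05%). These shares are descriptions without a test. The member windows were not richer in G and C than those of the genes tested, with a median GC content of 58.3% against 61.3%, while the median over all windows was 52.7%. In the windows printed above, Mrpl45, whose protein anchors the ribosome at the inner membrane, had 3 NRF1 matches, and Mrpl47 had 3 YY1 matches.

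The matches lay close to the annotated start. The median distance of a match from the start was -33 bases for NRF1 (15 matches), -19 bases for ETS (28 matches) and 18 bases for YY1 (23 matches). In the other genes tested these medians were -49, -32 and -9 bases. Of the YY1 matches in members, 15 (65.2%) lay after the start, as in Mrpl47, whose match of this kind stands near the end of the printed window. In the other genes tested that share was 46.9%.

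**Figure D1:**
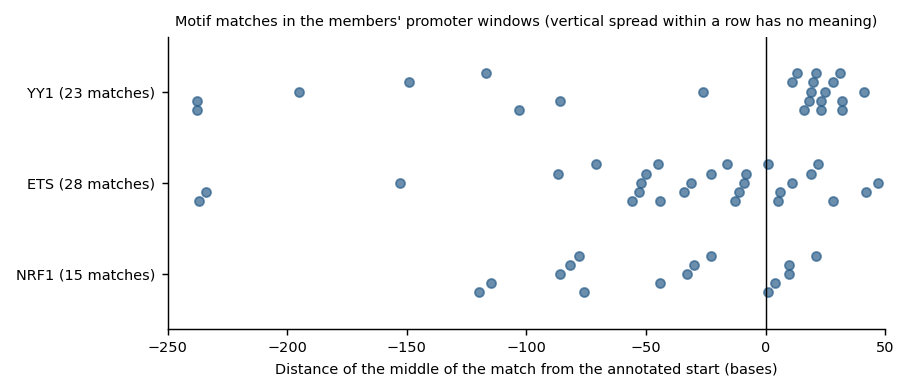
Position of the motif matches in the promoter windows of the members. Each point is 1 match, the horizontal axis gives the distance of its middle from the annotated start in bases, and rows are the NRF1, ETS and YY1 motifs. Of the YY1 matches 15 of 23 lie after the start, while the ETS and NRF1 matches centre before it at medians of -19 and -33 bases.

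A protein-coding gene on the opposite strand starts within 1000 bases of 32 of the 76 members found in the GENCODE annotation (42.1%), compared with 16.1% of the genes tested. The partners include genes of mitochondrial function, such as Ndufs6 beside Mrpl36 and Ndufb5 beside Mrpl47 (both for complex I) and Twnk, the mitochondrial DNA helicase, beside Mrpl43. They also include Sars2, the mitochondrial seryl-tRNA synthetase, beside Mrps12. Others serve other compartments, such as Psma2, a proteasome subunit, beside Mrpl32, and Fau, which encodes a cytosolic ribosomal protein, beside Mrpl49. Mrps11 and Mrpl46 face each other, 1 protein of each subunit. Of the partners, 26 were tested and edgeR called 0 of them. The members are spread over 17 chromosomes, with 10 on chromosome 11 and 9 on chromosome 17.

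Overlap with a gene of the other strand was found for 30 of 76 members (39.5%, against 36.6% of the genes tested). Whether counting used strand is not stated in the sources used here, so fragments of these members and of their antisense neighbours may not be separable. In the deposited table Mrps11 and Mrpl46 share 1 locus (chr7:78775235-78792989), as do Mrpl14, Mrpl2 and Mrps18a (chr17:45606434-46831413). How the authors' software divided fragments among genes of a shared locus is not stated in the sources used here.

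The members' transcripts were short. The median mRNA length of 75 members was 1288 bases (quartiles 920 and 2502), compared with 3299 bases over the genes tested, and the median number of exons was 5 against 10. The letters GGACT, a form of the sequence at which the Mettl3 and Mettl14 enzyme methylates, occurred at a median of 1.02 per kilobase in members and 1.04 per kilobase in the genes tested. With their short length, members had a median of 1 such site per mRNA against 3. No GGACT was present in the annotated mRNA of 14 members (18.7%, against 6.84% of the genes tested). The median log2 fold change was 0.14 over the 12 tested members without the letters and -0.09 over the 59 with them. Methylation itself was not measured in this table.

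The libraries were shallow. Fragments in genes numbered 1216498 and 744015 for Mettl3/14nKO and 1255526 and 1617429 for wild-type. Mettl3 had 30 and 9 fragments in the Mettl3/14nKO libraries and 20 and 47 in wild-type, and Mettl14 had 24 and 12 against 32 and 54. Neither passed the edgeR test (adjusted p of 0.849 and 0.308), and the exons deleted are not given in the labels, so fragments outside them cannot check the genotype. Islet hormone genes were abundant, with insulin transcripts at 38124 ± 5800 CPM (fragments scaled to the library total, SD, n = 2) in Mettl3/14nKO and 66620 ± 1268 CPM in wild-type, while acinar markers stood at 48.2 ± 19.3 and 62.5 ± 1.66 CPM. Of 7 beta cell markers, edgeR called 3 lower: Ins1, Ins2 and Iapp (adjusted p 0.0414, 0.00673 and 0.00742). It called 0 of 3 alpha cell and 0 of 2 delta cell markers, and 1 of 2 tested erythroid markers lower. Markers of other cells also moved with genotype. Mesenchymal markers stood at 10390 and 7364 against 4552 and 3272 CPM (edgeR called 7 of 9 higher), leukocyte markers at 289 and 571 against 44.6 and 109 CPM (5 of 10 higher), and endothelial markers at 460 and 289 against 1259 and 1071 CPM (7 of 10 lower). The part of these cells in the members' values was not tested. In bulk RNA, fewer cells of a type and less RNA per cell cannot be told apart.

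Member mRNAs were detected in all libraries at moderate levels. All 77 had fragments in Mettl3/14nKO replicate 1, whereas in Mettl3/14nKO replicate 2 Mrps18c and Mrps36-ps1 were at 0, and in each wild-type library Mrps36-ps1 was at 0. Median FPKM (the authors' values per transcript length and library size) over the members was 9.63 and 7.1 in Mettl3/14nKO against 8.93 and 11.4 in wild-type. These medians stood at the 63.3 to 70.3 percentile of the genes above 0 in the same library. The median member had 22 and 14 fragments in the Mettl3/14nKO libraries and 21 and 28 in wild-type, and 70, 51, 65 and 76 members reached 10 fragments.

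Levels spread several-fold among the members. In wild-type, the members' mean FPKM had a 10th percentile of 4.62, a median of 9.78 and a 90th percentile of 21.3. In Mettl3/14nKO these values were 3.68, 8.3 and 19.9. The order of the 77 levels was similar between libraries, with Spearman correlations of 0.59 to 0.77 over the members for pairs of libraries and 0.81 between the group means. Each pair shares gene lengths and the authors' estimation, so these are descriptions.

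Mrps21, a small-subunit protein with a bacterial counterpart, had the highest level, at 40.9 and 52.3 FPKM in Mettl3/14nKO and 56.8 and 50.8 FPKM in wild-type. Its lowest library lay above the highest library of Mrpl54, the next in order. Mrpl54, a large-subunit protein, stood at 27.1 and 29.5 FPKM against 27.5 and 35.5 FPKM. Mrpl52, also of the large subunit, varied most among the leading members, at 21.2 and 40.9 FPKM against 11.2 and 37.5 FPKM, with the lower value in replicate 1 of both groups. Mrps5, near the mRNA entry of the small subunit, had 19.1 and 30.5 FPKM against 30.4 and 18.6 FPKM. Mrpl24 of the large subunit had 24 and 16.7 FPKM against 26 and 27.5 FPKM. The ranges of Mrpl54, Mrpl52, Mrps5 and Mrpl24 overlapped, so their order is not resolved.

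The lowest members tested were large-subunit genes, except for Mrps27. Mrpl35 had 1.71 and 1.32 FPKM in Mettl3/14nKO and 1.31 and 1.76 FPKM in wild-type. Mrpl19 had 1.72 and 1.97 FPKM against 1.51 and 2.3 FPKM, and the ranges of both genes overlap. Mrpl45 stood at 2.97 and 1.76 FPKM against 1.89 and 4.25 FPKM. Mrpl11, at the base of the stalk that receives translation factors, stood at 3.51 and 3.86 FPKM against 2.29 and 2.8 FPKM. Mrps27, an RNA-binding protein of the small subunit found in mitochondria and not in bacteria, had 3.43 and 2.51 FPKM against 2.57 and 4.18 FPKM.

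**Figure D2:**
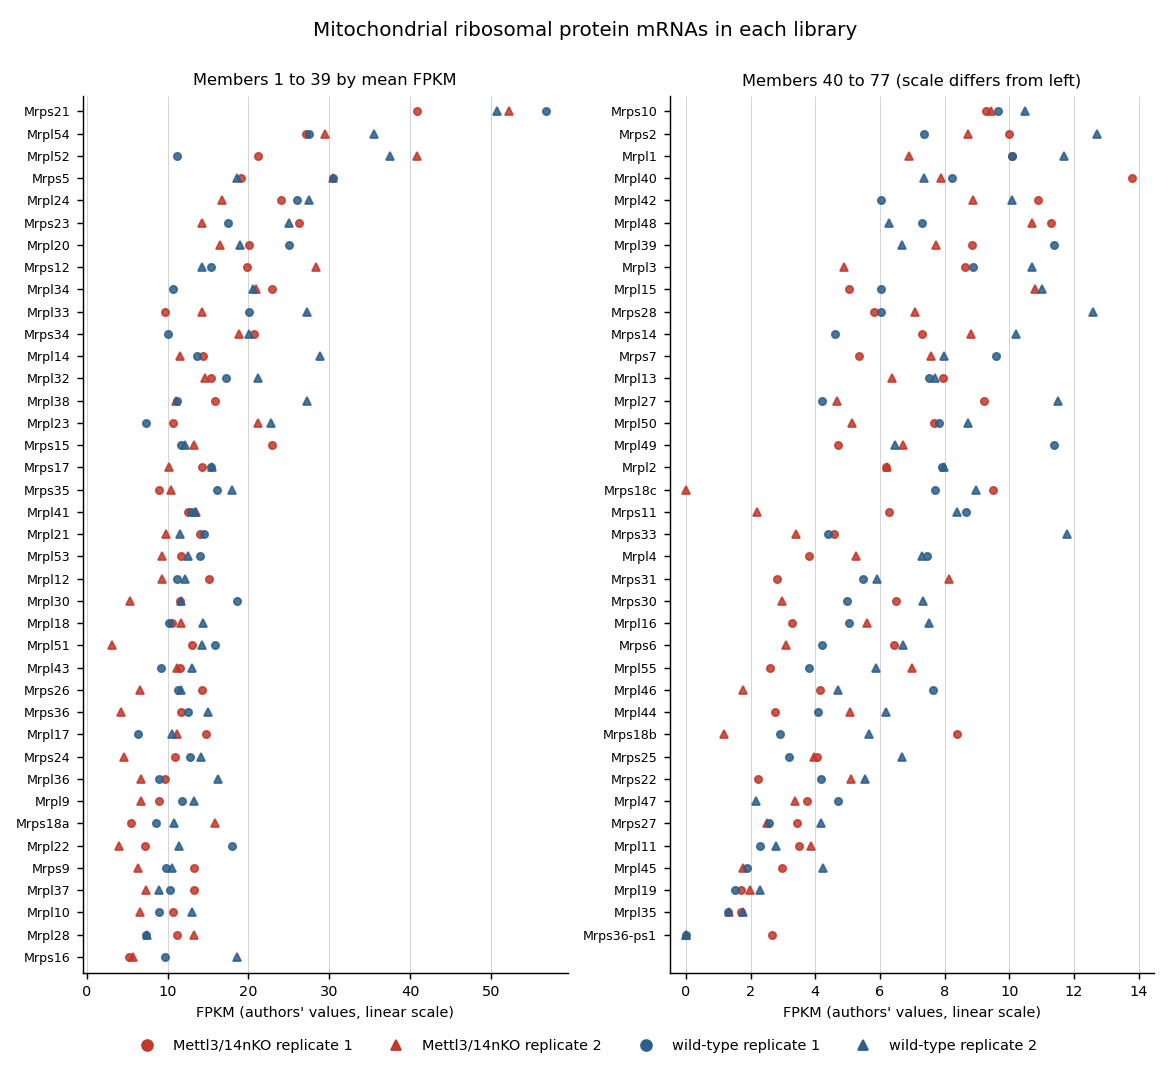
FPKM of all 77 members in each of the 4 libraries, ordered by mean FPKM from top left to bottom right. The horizontal axis is linear FPKM and its range differs between the panels, red marks Mettl3/14nKO and blue wild-type, and circles and triangles mark replicates 1 and 2. Mrps21 stands above every other member in each library, and for most members the red and blue points interleave.

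The first comparison asked whether the total mRNA for the mitochondrial ribosome differed between Mettl3/14nKO and wild-type islets. Summed over the 77 members, Mettl3/14nKO libraries had 1882 and 1123 fragments, or 1547 (95% exact binomial interval 1478 to 1619) and 1509 (1422 to 1600) CPM. Wild-type libraries had 1809 and 2482 fragments, or 1441 (1375 to 1509) and 1535 (1475 to 1596) CPM. Intervals cover counting error only. The groups overlapped, at 1528 ± 26.6 CPM in Mettl3/14nKO and 1488 ± 66.3 CPM in wild-type (SD, n = 2 each).

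Both subunits showed the same picture. Large-subunit members came to 996 and 970 CPM in Mettl3/14nKO and 941 and 979 CPM in wild-type. Small-subunit members summed to 536 and 534 CPM against 488 and 543 CPM. In each case wild-type replicate 1 was the lowest library, and the other wild-type library lay within or above the Mettl3/14nKO values. With insulin transcripts left out of the library totals, the 77 members came to 1602 and 1576 CPM in Mettl3/14nKO and 1542 and 1646 CPM in wild-type, again with overlap.

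By FPKM the members also overlapped, with sums of 820 and 745 in Mettl3/14nKO and of 807 and 982 in wild-type. For other ribosomal and mitochondrial transcripts the outcome depended on the measure. Cytosolic ribosomal protein genes, a list that includes pseudogene symbols, came to 18355 and 15734 CPM in Mettl3/14nKO and 12433 and 13419 CPM in wild-type. The protein genes on mitochondrial DNA, whose mRNAs the mitochondrial ribosome translates, summed to 25093 and 26153 CPM against 20992 and 18000 CPM. Of these 13 genes, mt-Atp6 and mt-Atp8 had 0 fragments in every library and add nothing to the sums. Neither list's groups overlapped in CPM, but both did in summed FPKM, at 15734 and 11416 against 11588 and 13567 for the cytosolic ribosomal genes and at 11084 and 9698 against 9914 and 9365 for the mitochondrial DNA genes. A list of 17 other nuclear genes of abundant mitochondrial proteins summed to 1667 ± 2.43 CPM in Mettl3/14nKO and 1809 ± 6.71 CPM in wild-type, and its summed FPKM of 457 and 385 against 526 and 580 did not overlap either. Gene by gene, however, edgeR called 0 of the 17. Their median log2 fold change was -0.01, with 8 genes above 0 and 9 below, so the lower sum was not a fall across the list. With 2 libraries against 2, the smallest two-sided p an exact permutation test can give is 0.333, so the sums carry no test.

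**Figure D3:**
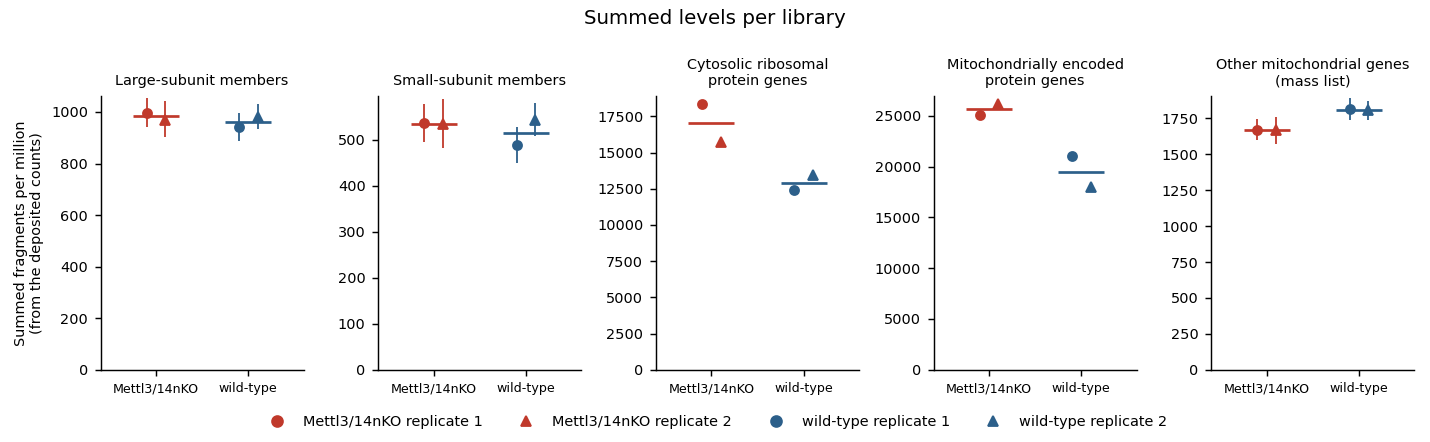
Summed CPM per library for large- and small-subunit members and for 3 related gene lists. Points are libraries with 95% exact binomial intervals, horizontal bars are group means, vertical axes start at 0, and red and blue mark Mettl3/14nKO and wild-type. The groups overlap for both subunits of the mitochondrial ribosome, while the Mettl3/14nKO points lie above the wild-type points for the cytosolic ribosomal and mitochondrially encoded lists and below them for the other mitochondrial list.

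No member passed the gene-level test. Of the 77 members, 72 had enough fragments to be tested, and edgeR's quasi-likelihood test with Benjamini-Hochberg adjustment over 10956 genes called 0 higher and 0 lower in Mettl3/14nKO. Over all genes tested it called 406 (3.71%), 230 higher (2.1%) and 176 lower (1.61%). At an unadjusted p under 0.05, edgeR had 3 members (4.17%, against 15.9% of all genes tested), limma on log2(FPKM + 1) had 9 of 76 (11.8%, against 12.1%) and DESeq2 had 0 of 72 (against 6.81%). After adjustment DESeq2 called 0 members (1.48% of all genes, 0.949% higher and 0.529% lower) and limma 0 members (0% of all genes). The smallest adjusted p of a member with edgeR was 0.173, for Mrps15.

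Fold changes of the members centred on 0. The median log2 fold change of Mettl3/14nKO over wild-type was -0.03 over the 72 tested members and 0.00 over all genes tested, with 33 members above 0 and 39 below. The members' quartiles were -0.22 and 0.24 and their range ran from -0.998 for Mrpl22 to 0.96 for Mrpl28. A log2 fold change under 0.5 in size was found for 59 members (81.9%, against 77.9% of all genes tested), and 0 reached 1 or more in size, against 6.91% of all genes. The large-subunit and the small-subunit members each had a median of -0.03. Proteins with a bacterial counterpart had a median of -0.08 in the large subunit (29 tested) and -0.08 in the small subunit (13 tested). Proteins without such a counterpart had a median of 0.10 in the large subunit (19 tested) and 0.07 in the small subunit (10 tested).

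**Figure D4:**
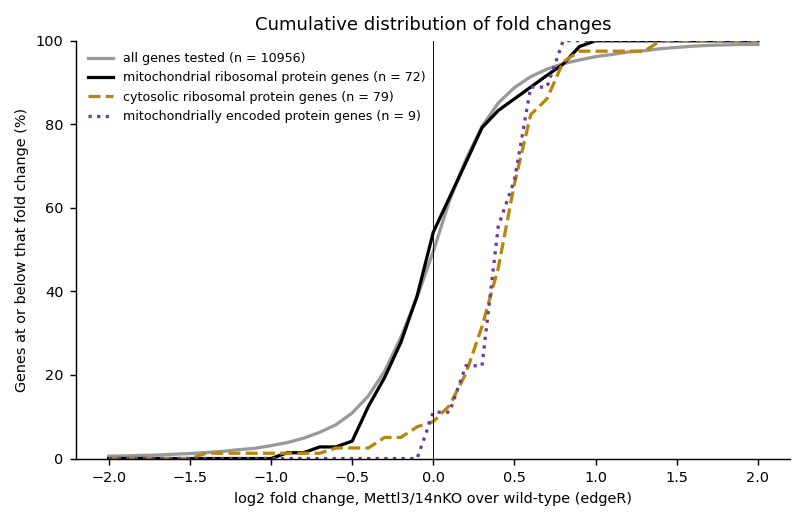
Cumulative share of genes by edgeR log2 fold change of Mettl3/14nKO over wild-type, for the 72 tested members, 79 tested cytosolic ribosomal protein genes, 9 tested protein genes of mitochondrial DNA and all 10956 genes tested. The cytosolic list includes pseudogene symbols. The vertical axis is the percent of genes at or below a fold change. The member curve follows the curve of all genes near a median of 0, whereas the other lists lie to the right, with medians of 0.42 and 0.38.

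Most members did not separate the groups. In CPM after TMM scaling (edgeR's adjustment of library totals), the 2 Mettl3/14nKO libraries lay entirely above or below the 2 wild-type libraries for 21 members (29.2%), compared with 45.2% of all genes tested. In 13 members Mettl3/14nKO was the higher group (18.1%, against 22.4% of all genes) and in 8 the lower (11.1%, against 22.8%). The difference between group means exceeded the larger difference between replicates in 10 of the 72 members (13.9%, against 32.4% of all genes tested). These shares were not tested against each other, and the members' errors are larger than those of genes at large. Direction depended on the measure. In limma on log2(FPKM + 1), the fold change lay above 0 for 18 of 76 members and below 0 for 58. Over all 12213 genes of that fit it lay above 0 for 3565 and below 0 for 8648.

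Replicate error was of the same order as the differences between groups. Between replicates, members differed by a median of 0.45 on the log2 scale in Mettl3/14nKO and 0.29 in wild-type, compared with a difference between group means of 0.23. Over all genes tested these medians were 0.28, 0.23 and 0.24. A mean of 2 libraries varies less than 1 library, so the difference between means would be the smaller under noise alone. The chi-square per degree of freedom between replicates, which is 1 where counting noise is the only source of spread, was 1.66 in Mettl3/14nKO and 1.28 in wild-type over members, and 2.39 and 2.31 over all genes. The median standard error of a member's log2 fold change was 0.37, against 0.27 over all genes tested. The 95% interval excluded a 2-fold fall for 51 of the 72 members, a 2-fold rise for 52 and both for 32. Its half-width ran from 0.48 for Mrpl1, the member with the most fragments summed over the libraries, to 1.38 for Mrps18b. For the other members a change of 2-fold in at least 1 direction was not excluded at this depth.

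**Figure D5:**
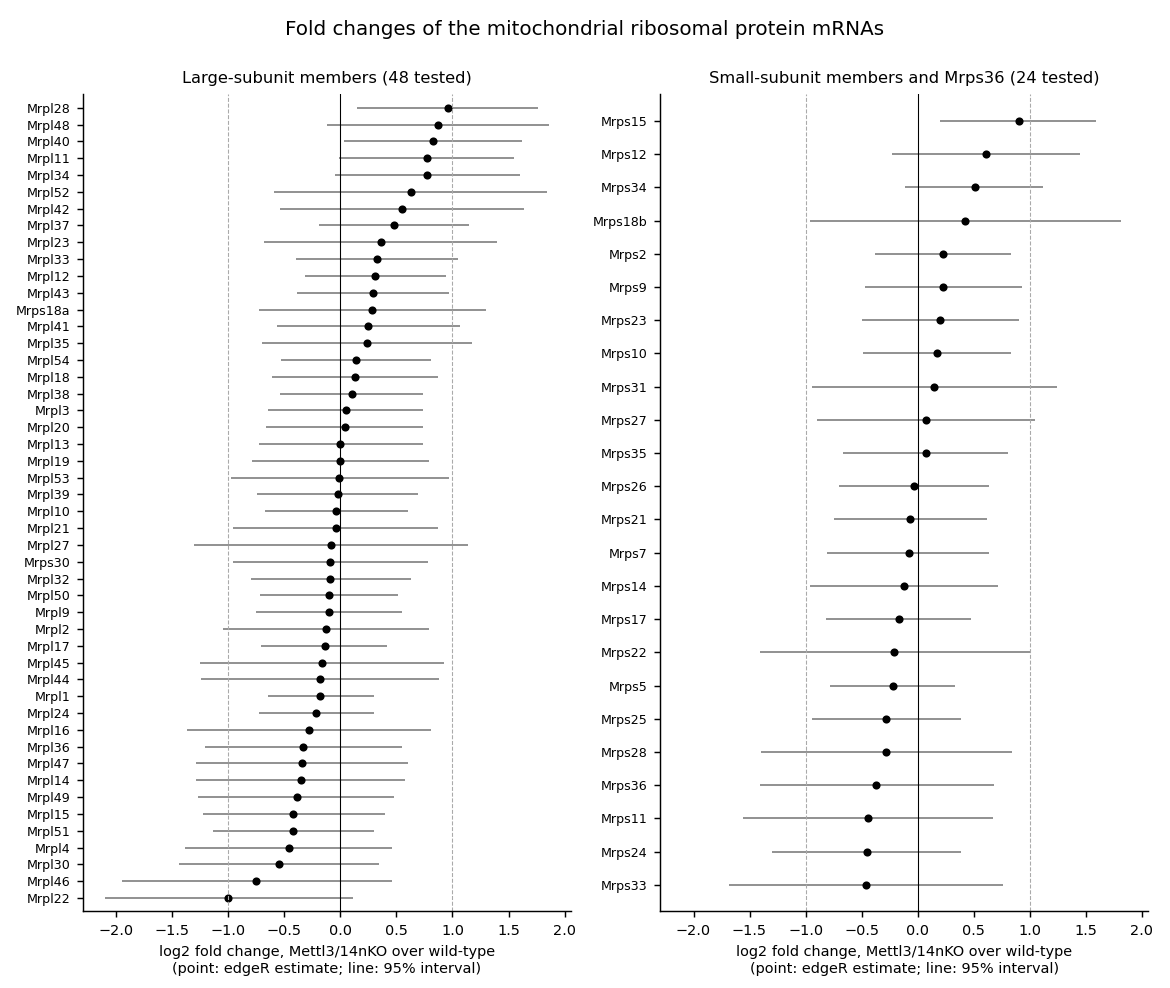
Log2 fold change of Mettl3/14nKO over wild-type for the 72 tested members, with large-subunit members at left and small-subunit members and Mrps36 at right. Points are edgeR estimates, lines their 95% intervals, and dashed lines mark a 2-fold change either way. The estimates run from -0.998 for Mrpl22 to 0.96 for Mrpl28, and most intervals cross 0.

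Among small-subunit proteins the smallest p belonged to Mrps15, which has a counterpart in bacteria that binds ribosomal RNA early in assembly. Mrps15 had 45 and 19 fragments in the Mettl3/14nKO libraries and 22 and 27 in wild-type, or 37 and 25.5 CPM against 17.5 and 16.7 CPM. Both Mettl3/14nKO libraries lay above both wild-type libraries. The log2 fold change was 0.90 ± 0.32 (SE) with an interval of 0.20 to 1.59, and the edgeR adjusted p was 0.173, which misses the threshold of 0.05.

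Mrps12, the protein of the decoding centre that governs accuracy, had 17.3 and 30.9 CPM in Mettl3/14nKO and 16.7 and 13.6 CPM in wild-type. Its groups did not overlap, but Mettl3/14nKO replicate 1 lay close to wild-type replicate 1. The log2 fold change was 0.61 ± 0.39 (edgeR adjusted p 0.52), and 0.18 without Mettl3/14nKO replicate 2. Mrps34, found in mitochondria and not in bacteria, had 37.8 and 34.9 CPM against 22.3 and 28.4 CPM, with a log2 fold change of 0.51 ± 0.28 (edgeR adjusted p 0.436). Mrps21 and Mrps5, with the highest FPKM of the subunit, had log2 fold changes of -0.07 ± 0.32 and -0.22 ± 0.26. Mrps22, mutated in human disorders of oxidative phosphorylation, rested on 6 and 10 fragments against 11 and 17, and its log2 fold change of -0.21 ± 0.56 is poorly determined. Mrps27 had a log2 fold change of 0.07 ± 0.45.

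The 3 mammalian relatives of the bacterial S18 protein varied between replicates. In the classes used above, Mrps18c was counted with a bacterial counterpart, and Mrps18a and Mrps18b without one. Mrps18a, a large-subunit protein, ranked 33 of 77 by mean FPKM (10.1), Mrps18c ranked 57 (6.55) and Mrps18b ranked 68 (4.53). Mrps18a had 13 and 21 fragments in the Mettl3/14nKO libraries and 15 and 28 in wild-type, with a log2 fold change of 0.28 ± 0.47. Mrps18b had 18 and 2 fragments against 6 and 15, so that the wild-type values lay between those of Mettl3/14nKO, and its log2 fold change was 0.42 ± 0.64. Mrps18c had 11 and 0 fragments against 7 and 12 and was not tested. The 0 in Mettl3/14nKO replicate 2 allows up to 4.03 CPM, while the other libraries stood at 9.04, 5.58 and 7.42 CPM.

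The remaining untested members were also limited by counts. Mrps16 had 5 and 4 fragments in the Mettl3/14nKO libraries and 9 and 20 in wild-type. Mrps6 had 11 and 3 fragments against 7 and 13, and Mrpl55 had 4 and 8 against 6 and 12. Mrps36-ps1 had 3 fragments in Mettl3/14nKO replicate 1 and 0 in the other libraries, and reads may be shared with Mrps36, which it resembles. Mrps36 itself had 15 and 4 fragments against 15 and 20, with Mettl3/14nKO replicate 2 the lowest, and a log2 fold change of -0.37 ± 0.48.

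In the large subunit, Mrpl28, whose protein has a bacterial counterpart, had 20.6 and 28.2 CPM in Mettl3/14nKO and 12.7 and 11.7 CPM in wild-type. The groups did not overlap, and the log2 fold change of 0.96 ± 0.37 had an edgeR adjusted p of 0.211. Mrpl40, found in mitochondria and not in bacteria, had 25.5 and 20.2 CPM against 15.1 and 11.1 CPM, with a log2 fold change of 0.83 ± 0.37 (edgeR adjusted p 0.29). Mrpl34 had 22.2 and 24.2 CPM against 9.56 and 16.7 CPM, with a log2 fold change of 0.77 ± 0.38 (edgeR adjusted p 0.355). Mrpl48 had 18.9 and 10.8 CPM against 8.76 and 8.04 CPM, with a log2 fold change of 0.87 ± 0.46 (edgeR adjusted p 0.395), and of 0.37 without Mettl3/14nKO replicate 1. In all 4 both Mettl3/14nKO libraries lay above both wild-type libraries in CPM, while the size of the gap varied with the replicate. By FPKM this held for Mrpl28, Mrpl34 and Mrpl48, but the groups of Mrpl40 overlapped, at 13.8 and 7.88 against 8.24 and 7.35. Mrpl37 had 41.1 and 25.5 CPM against 26.3 and 22.9 CPM, so that its groups overlapped (log2 fold change 0.48 ± 0.31, edgeR adjusted p 0.523, and 0.07 without Mettl3/14nKO replicate 1).

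Mrpl22, whose bacterial counterpart lines the exit tunnel, had the lowest fold change of the members. Its fragments numbered 10 and 4 in Mettl3/14nKO against 23 and 17 in wild-type, or 8.22 and 5.38 CPM against 18.3 and 10.5 CPM. The groups did not overlap, but wild-type replicate 2 lay nearer to the Mettl3/14nKO libraries than to wild-type replicate 1. The log2 fold change was -0.998 ± 0.51 and the edgeR adjusted p was 0.376.

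The stalk, which recruits translation factors to the ribosome, is formed by Mrpl10, Mrpl12 and the Mrpl11 base. Mrpl11 had 20.6 and 26.9 CPM in Mettl3/14nKO and 12.7 and 14.2 CPM in wild-type, with no overlap and a log2 fold change of 0.77 ± 0.36 (edgeR adjusted p 0.323). Mrpl12, which has also been found to bind the mitochondrial RNA polymerase, had 35.3 and 26.9 CPM against 25.5 and 25.3 CPM. Its Mettl3/14nKO replicate 2 was close to both wild-type libraries, and the log2 fold change was 0.31 ± 0.29, and 0.09 without Mettl3/14nKO replicate 1. Mrpl10 had 35.3 and 25.5 CPM against 27.9 and 35.2 CPM, with full overlap and a log2 fold change of -0.04 ± 0.29.

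Mrpl44, which carries a fold of the ribonuclease III family, had 7.4 and 16.1 CPM in Mettl3/14nKO and 10.4 and 14.2 CPM in wild-type. The wild-type values lay between those of Mettl3/14nKO (log2 fold change -0.18 ± 0.49). Mrpl45, the membrane anchor, had 9.04 and 6.72 CPM against 8.76 and 9.27 CPM (log2 fold change -0.16 ± 0.50). Mrps30 had 19.7 and 10.8 CPM against 14.3 and 19.2 CPM (log2 fold change -0.09 ± 0.40). None of these separated the groups. Among the highest and lowest large-subunit genes by FPKM, the log2 fold changes were 0.14 ± 0.31 for Mrpl54, 0.63 ± 0.56 for Mrpl52, -0.22 ± 0.24 for Mrpl24, 0.24 ± 0.43 for Mrpl35 and 0.00 ± 0.37 for Mrpl19.

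The facing pair Mrps11 and Mrpl46, singled out for its shared locus, had low counts in 1 library. Mrps11 had 14 and 3 fragments in the Mettl3/14nKO libraries and 14 and 19 in wild-type, and Mrpl46 had 10 and 3 against 18 and 13. Mettl3/14nKO replicate 2, the shallowest library, was lowest for both. The log2 fold changes were -0.44 ± 0.52 and -0.75 ± 0.56. The symbols outside the rule stood at 0.15 ± 0.35 for Mrp63 (Mrpl57, large subunit) and -0.52 for Ict1 (Mrpl58, a peptidyl-tRNA hydrolase built into the large subunit), with edgeR adjusted p of 0.898 and 0.498.

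The deposited FPKM and the fragments did not always give the same direction. Over the 72 members tested both ways, 23 had opposite signs in limma on log2(FPKM + 1) and in edgeR, and 15 still did after each fit's median over all genes was subtracted (-0.21 for limma). The limma median of the members was -0.19, near that of all genes. Mrpl33, the member with the largest gap (chosen after its values were seen), had 9.63 and 14.2 FPKM in Mettl3/14nKO and 20.1 and 27.2 FPKM in wild-type. Its fragments, however, numbered 29 and 30 against 35 and 35, or 23.8 and 40.3 CPM against 27.9 and 21.6 CPM. The log2 fold change was -0.94 from FPKM and 0.33 from fragments. Gaps of -0.83 for Mrps35, 0.73 for Mrpl17 and -0.67 for Mrpl51 followed. FPKM depends on how the authors' software assigned fragments to transcripts of different length, and the part of that step in these gaps was not tested.

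The other components of mitochondrial translation showed no called gene in edgeR. Of 5 mitochondrial ribosomal proteins under other symbols, 0 were called, with a median log2 fold change of -0.30. Dap3, a GTP-binding protein of the small subunit, had 51 and 16 fragments in the Mettl3/14nKO libraries and 67 and 47 in wild-type (-0.30 ± 0.36), Gadd45gip1 of the large subunit stood at -0.42 ± 0.29 and Ptcd3 of the small subunit at -0.30 ± 0.33. Of 14 tested translation factors 0 were called (median 0.19), with 0.35 ± 0.22 for Gfm2, which splits the ribosome after termination, 0.36 ± 0.35 for Mrrf, the recycling factor, and 0.58 ± 0.47 for Taco1, a translational activator of cytochrome oxidase subunit I. Of 14 tested assembly factors 0 were called (median 0.02). Mterf3, listed as Mterfd1, had 28 and 16 fragments against 45 and 62 and a log2 fold change of -0.73 ± 0.29, and Eral1, an RNA chaperone of the small subunit, stood at 0.95 ± 0.44 and Fastkd2 at 0.76 ± 0.41. The FPKM of Eral1, at 4.09 and 2.95 against 4.63 and 3.18, overlapped between the groups. At an unadjusted p under 0.05, edgeR had 0 of the 5, 0 of the 14 and 2 of the 14 genes (14.3%), against 15.9% of all genes tested. DESeq2 and limma called 0 in these 3 lists.

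A list of mitochondrial biogenesis and transcription regulators was also tested. Their binding at the members' promoters was not measured. Nrf1 had 62 and 32 fragments in the Mettl3/14nKO libraries and 92 and 105 in wild-type, with a log2 fold change of -0.54 ± 0.21 (edgeR adjusted p 0.223). Gabpa, the DNA-binding subunit of the ETS factor GABP, had 70 and 11 fragments against 102 and 98, with a log2 fold change of -0.85 ± 0.37 (edgeR adjusted p 0.282) and its lowest count in the shallowest library. That library was also the lowest by FPKM, which scales for library size, at 18.5 and 5.04 against 18 and 9.77. By FPKM the groups overlapped. Yy1 had 98 and 77 fragments against 125 and 153 and a log2 fold change of -0.10 ± 0.18. Of the 15 tested genes of this list edgeR called 0 and had 5 at an unadjusted p under 0.05 (33.3%, against 15.9% of all genes tested). The smallest p belonged to Ppargc1b, a coactivator of mitochondrial genes. It had 17 and 11 fragments against 7 and 7 and a log2 fold change of 1.52 ± 0.50 (edgeR adjusted p 0.132), while its FPKM of 1.85 and 1.66 lay between the wild-type values of 5.26 and 0.66. Myc stood at -0.82 ± 0.27 (edgeR adjusted p 0.139).

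The mRNAs that this ribosome translates and the proteins of its cytosolic counterpart gave called genes. The list for mitochondrial DNA held 13 genes. Of these, mt-Atp6 and mt-Atp8 had 0 fragments in every library. In Mettl3/14nKO against wild-type, mt-Nd3 had 0 and 2 against 2 and 6 fragments, and mt-Nd4l 4 and 5 against 5 and 4. The tested mt-Co2 had 45 and 47 against 43 and 62, and mt-Co3 28 and 18 against 25 and 34. By comparison, mt-Co1 had 9331 and 6291 against 7594 and 8035. Why these genes differed so far was not tested. Of 9 tested protein genes of mitochondrial DNA, 8 had a log2 fold change above 0 (median 0.38). At an unadjusted p under 0.05 edgeR had 6 (66.7%, against 15.9% of all genes tested), and after adjustment it called 1. This was mt-Nd6, a complex I subunit, with 584 and 415 fragments against 442 and 438 and a log2 fold change of 0.73 ± 0.15 (edgeR adjusted p 0.0172). It lies on the opposite strand to the other protein genes of mitochondrial DNA, and whether counting used strand is not stated. Without wild-type replicate 2 its adjusted p was 0.085 and edgeR called 0 of the 9, while each other library left out gave 3. DESeq2 called 3 and limma 0. Of 79 tested cytosolic ribosomal protein genes, edgeR called 13 higher and 0 lower (median 0.42), DESeq2 6 higher and limma 0. The list includes symbols named as pseudogenes, among them Rps26-ps1, which edgeR called higher (adjusted p 0.00722). Without a filter on low counts, edgeR called 24 higher and 2 lower of 91 tested. The list's median was 0.30 without Mettl3/14nKO replicate 1 and 0.49 without Mettl3/14nKO replicate 2. It was 0.35 without wild-type replicate 1 and 0.46 without wild-type replicate 2. The difference between these lists and the members was not tested.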

How the data were processed

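RNA sequencing of islets was analysed in 4 libraries, with groups from the labels. Per the labels' protocols, ribosomal RNA was depleted and a directional paired-end kit was used. Per the submitters' processing notes, cutadapt 1.9.3, HISAT2 2.0.4, Cufflinks, Cuffdiff and build mm10 were used. The annotation release, and whether strand was used in counting, were not stated in the sources used here. The authors' table holds FPKM and estimated counts per gene and library, per the file headers. In each library 92.3 to 93.2% of the deposited estimated counts above 0 lay within 0.01 of a whole multiple of 1 step (0.968 and 1.33 for Mettl3/14nKO replicates 1 and 2, 0.982 and 0.835 for wild-type). They were divided by the step and rounded to fragments, and genes of 1 symbol were summed.

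The main test was edgeR 4.0.16 (R 4.3.3, quasi-likelihood, TMM, filterByExpr), two-sided, with Benjamini-Hochberg adjustment at 0.05 over 10956 genes. Standard errors are the log2 fold change over the square root of F. The common biological coefficient of variation was 0.118. Alternatives were DESeq2 1.42.0, limma 3.58.1 on log2(FPKM + 1) or + 0.1 for genes of mean FPKM 1 or more (the added constant shrinks the folds of low genes), other scalings, no filter, a replicate block and each library left out. The scripts were tested on simulated data. Coordinates and mRNA features came from GENCODE M21 (GRCm38), which held 96.8% of the table's gene identifiers, and older symbols were matched through RefSeq synonyms. Python 3.11.15, numpy 2.4.6, pandas 2.3.3, scipy 1.17.1 and matplotlib 3.10.9 served for tables and figures.

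Members and lists were chosen with earlier results of these data known. The rule for named members took those called, the 10 with the smallest edgeR p, the 5 highest and 5 lowest tested by mean FPKM and 12 fixed for their roles; other lists gave up to 3 genes by smallest p. Members named for their counts, shared locus or neighbours, and Gabpa, Yy1 and Nrf1 for their motifs, were chosen outside it. Same-numbered libraries did not deviate together (r = 0.0261 over 10956 genes), so the numbers were not taken to pair the libraries. Protein sequences were not used here.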

Additional observations from a re-analysis of the deposited data

How the results depend on the processing

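In edgeR, DESeq2 and limma, 0 members were called higher and 0 lower under each of the 12 alternatives, and the smallest adjusted p of a member over all fits was 0.0834 (Mrps15, edgeR without Mettl3/14nKO replicate 2). Over all genes, edgeR called 857 without a filter on low counts, 266 without Mettl3/14nKO replicate 1 and 675 without Mettl3/14nKO replicate 2, and DESeq2 called 162, against 406. With a replicate block edgeR again called 0 members (median log2 fold change -0.04, all genes called 376). Each limma fit called 0 of all genes, so its 0 for members could not set them apart from other genes. The deviations of same-numbered libraries correlated at r = 0.0261, which does not exclude a pairing that the labels leave out. The members' median of -0.03 was -0.19 in limma on log2(FPKM + 1), -0.24 on log2(FPKM + 0.1) and -0.18 with every gene above 0, where the medians of all genes were -0.21, -0.24 and -0.16. It ran from -0.06 to 0.10 with 1 library left out, and was 0.10 without wild-type replicate 2. Of 324 values of the 27 named members under the alternatives, 285 kept their direction and their side of the threshold and 39 changed sign; the cause was not tested. In limma on log2(FPKM + 1), with or without its filter, Mrpl19 stood at -0.02, Mrpl35 at -0.01, Mrpl54 at -0.14, Mrps18a at -0.03, Mrps18b at -0.17, Mrps27 at -0.12 and Mrps5 at 0.02, and on log2(FPKM + 0.1) Mrps18a stood at -0.05, Mrps18b at -0.34, Mrps27 at -0.15 and the other 4 as before. Mrpl19 stood at -0.02 in edgeR without a filter. With 1 library left out, the log2 fold change ran from -0.30 to 0.14 for Mrpl10, -0.20 to 0.27 for Mrpl19, -0.76 to 0.38 for Mrpl44, -0.01 to 1.67 for Mrpl52, -0.04 to 0.36 for Mrpl54, -0.49 to 0.93 for Mrps18a, -1.38 to 1.01 for Mrps18b, -0.36 to 0.26 for Mrps21, -0.98 to 0.48 for Mrps22, -0.16 to 0.39 for Mrps27, -0.64 to 0.20 for Mrps30 and -1.15 to 0.00 for Mrps36. It kept its sign in the other 15, running from 0.59 to 1.09 for Mrps15, 0.73 to 1.21 for Mrpl28, 0.58 to 0.99 for Mrpl11, 0.60 to 1.05 for Mrpl40, 0.36 to 0.70 for Mrps34, 0.46 to 1.25 for Mrpl34, 0.37 to 1.15 for Mrpl48, 0.18 to 1.05 for Mrps12, 0.07 to 0.73 for Mrpl37, 0.09 to 0.46 for Mrpl12, 0.11 to 0.39 for Mrpl35, -1.38 to -0.58 for Mrpl22, -0.39 to -0.10 for Mrpl24, -0.41 to -0.02 for Mrpl45 and -0.42 to -0.02 for Mrps5. Where a group is left with 1 library, it is assumed to vary like the other group. Depth limits these results: the median member had 14 fragments in the shallowest library, and of 72 members 40 had an interval that admitted a 2-fold change.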
